A study of Homo sapiens with 6 samples.

Results

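In Nthy-ORI cells treated with T3 for 24 h, 655 dense clusters were formed by accessible regions with summits away from the ends of protein-coding genes. A distal peak was one whose summit, the mean of its 2 replicate summits, lay over 1 kb from every boundary of a protein-coding gene on chromosomes 1 to 22 and X. Distal peaks with gaps of at most 12500 bp were joined, and joined groups of 5 or more peaks were kept as clusters. This left 655 of 32361 groups, holding 4105 of the 48760 distal peaks among the 60661 peaks of the T3 24 h list. The clusters themselves could run across gene ends. Of the 655, 151 held a boundary of a protein-coding gene, and 36 held a T3 24 h peak within 1 kb of one. Nthy-ORI is an immortalised line of normal human thyroid epithelium, and its open chromatin was mapped by ATAC-seq, in which Tn5 transposase inserts adapters into accessible DNA of nuclei. All cells spent 24 h in hormone-stripped medium. They were then given 10 nM T3 (triiodothyronine) for 24 h, 10 nM T3 for 6 h, or the vehicle NaOH, which is labelled 6 h, with 2 samples in each group. Hormone and time therefore cannot be told apart for the 24 h list, and whether both samples of a group came from their own cultures is not stated in the labels.

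Accessible regions away from gene ends include enhancers, stretches of DNA bound by transcription factors that can act on genes at a distance. Joining neighbouring regions is a common step in the search for super-enhancers, which are then ranked by the binding of coactivators or by histone marks. No such mark was measured here, so the clusters are defined by peak spacing alone. In epithelial and mesenchymal cells many distal accessible regions carry the site of AP-1, the dimer of FOS and JUN proteins that responds to growth factors and serum. The thyroid hormone receptor binds pairs of a half-site together with the receptor RXR. Some joined regions can also lie over repeats near centromeres, where short reads are hard to place.

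Of the cluster peaks, 152 covered a transcription start listed by RefSeq, belonging to 103 lncRNA genes and 56 protein-coding genes. For 52 of the 56 protein-coding genes every covered start lay over 1 kb inside the boundaries of the gene, that is at an inner start, since peaks with summits near boundaries were excluded. Each start was represented by a window of 300 bases, 250 before the start and 50 after it, and searched on both strands for fixed letters. The shares of windows given here and below count genes, although some genes had several covered starts. The AP-1 site TGANTCA occurred for 26 of the 103 lncRNA genes with a start under cluster peaks (25.2%, 95% interval 17.2 to 34.8). It occurred for 17.3% (15.2 to 19.7) of 1113 lncRNA genes with a start under other distal T3 24 h peaks and for 10.5% (9.91 to 11.04) of all 11383. Of the 56 protein-coding genes with a start under cluster peaks, 12 held it (21.4%, 11.6 to 34.4). The share was 7.39% (5.97 to 9.02) of 1191 genes with a start under other distal peaks and 5.76% of all 15812. The interval of the cluster starts overlapped that of the other distal starts for lncRNA genes and did not for protein-coding genes. The median GC content of the windows was 57.3% under cluster peaks and 59.3% under other distal peaks for lncRNA genes, and 64.7% and 65.0% for protein-coding genes. The part of base composition in these shares was not tested.

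The windows printed here are, for each kind of gene, the 3 with the strongest T3 24 h peaks among those that hold the AP-1 site. They show where the site lies at starts that are open within a cluster, and they were chosen after the matches were known. Sequences are those of RefSeq, build GRCh38.p14, 5′ to 3′ on the strand of the gene, and capitals mark TGANTCA.
LINC-PINT (chr7:130913261-130913560, minus strand): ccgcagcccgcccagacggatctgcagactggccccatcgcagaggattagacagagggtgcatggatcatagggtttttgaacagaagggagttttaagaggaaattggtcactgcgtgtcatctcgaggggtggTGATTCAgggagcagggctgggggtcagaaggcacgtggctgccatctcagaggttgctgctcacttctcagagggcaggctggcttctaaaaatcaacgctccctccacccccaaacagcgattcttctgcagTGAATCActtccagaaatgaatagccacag
DLGAP1-AS2 (chr18:3603487-3603786, plus strand): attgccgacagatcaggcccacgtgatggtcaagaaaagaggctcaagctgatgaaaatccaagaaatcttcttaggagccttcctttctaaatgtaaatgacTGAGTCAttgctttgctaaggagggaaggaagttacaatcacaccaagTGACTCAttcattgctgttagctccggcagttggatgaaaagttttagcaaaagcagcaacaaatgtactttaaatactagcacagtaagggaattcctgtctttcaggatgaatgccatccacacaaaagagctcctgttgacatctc
LOC105373954 (chr2:237298804-237299103, minus strand): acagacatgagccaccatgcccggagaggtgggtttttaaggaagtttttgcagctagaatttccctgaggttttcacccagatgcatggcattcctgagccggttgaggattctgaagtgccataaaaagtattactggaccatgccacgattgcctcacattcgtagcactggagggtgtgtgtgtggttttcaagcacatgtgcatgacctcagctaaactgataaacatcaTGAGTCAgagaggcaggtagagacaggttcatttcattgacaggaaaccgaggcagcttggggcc
PALM2AKAP2 (chr9:110125251-110125550, plus strand): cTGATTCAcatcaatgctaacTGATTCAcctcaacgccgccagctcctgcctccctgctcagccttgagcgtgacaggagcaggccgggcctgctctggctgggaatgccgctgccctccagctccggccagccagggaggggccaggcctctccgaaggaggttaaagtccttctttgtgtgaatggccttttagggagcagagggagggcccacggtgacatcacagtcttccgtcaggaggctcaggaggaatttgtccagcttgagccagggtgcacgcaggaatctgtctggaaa
SH3BP4 (chr2:234981124-234981423, plus strand): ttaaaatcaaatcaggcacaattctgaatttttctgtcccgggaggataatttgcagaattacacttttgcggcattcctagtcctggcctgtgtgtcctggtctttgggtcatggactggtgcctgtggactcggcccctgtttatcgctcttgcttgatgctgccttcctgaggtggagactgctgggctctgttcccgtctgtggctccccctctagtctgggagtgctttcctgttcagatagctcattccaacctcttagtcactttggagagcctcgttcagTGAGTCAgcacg
TRAPPC3 (chr1:36149437-36149736, minus strand): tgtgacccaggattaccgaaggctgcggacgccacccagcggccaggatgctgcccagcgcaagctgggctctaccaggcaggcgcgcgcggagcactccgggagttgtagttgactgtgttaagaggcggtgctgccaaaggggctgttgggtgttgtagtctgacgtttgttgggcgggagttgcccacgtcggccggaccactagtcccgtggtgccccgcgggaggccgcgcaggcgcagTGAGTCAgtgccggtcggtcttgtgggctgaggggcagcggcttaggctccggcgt

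The peak over the LINC-PINT start, a long noncoding RNA first described as a p53 target, had a signal of 24.3, the sum of 12.1 and 12.2 in the 2 replicate columns. That over DLGAP1-AS2 had 23.4 (13.1 and 10.4) and that over LOC105373954 had 21.4 (8.95 and 12.48). Among the protein-coding genes the peak over a start of PALM2AKAP2, which encodes an anchoring protein for protein kinase A, had 28.3 (11.6 and 16.6). That over SH3BP4, an SH3-domain protein of endocytosis, had 26.6 (11.2 and 15.4), and that over TRAPPC3, a subunit of a vesicle-tethering complex, had 25.5 (12.1 and 13.4). None of these 6 peaks was shared with T3 6 h or vehicle, where shared means an overlap of at least 50% of the shorter peak. Of the 146 cluster peaks over a start within 100 kb of a gene, 9.59% were shared with T3 6 h and 2.74% with vehicle. The match lay nearest to the start in TRAPPC3, beginning 6 bases before it, and farthest in PALM2AKAP2, where it began 249 bases before the start.

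For the other 4 motifs searched, the intervals at starts under cluster peaks and under other distal peaks overlapped for both kinds of gene. The TEAD letters CATTCC, bound by the partners of YAP, were in 20.4% of lncRNA windows under cluster peaks and 18.96% under other distal peaks, and in 16.1% and 12.9% of protein-coding windows. The nuclear receptor half-site AGGTCA was in 20.4% and 15.99% of lncRNA windows and in 10.7% and 9.32% of protein-coding windows. The SP/KLF letters GGGCGG, common in CpG-rich promoters, were in 39.8% and 44.1% of lncRNA windows and 53.6% and 66.3% of protein-coding windows. The ETS letters CCGGAAG were in 8.74% and 10.96% of lncRNA windows and in 8.93% and 12.3% of protein-coding windows. None of these 5 motifs contains another, and a match describes letters only. The remaining cluster peaks could not be searched, because the sequence used here covers starts of genes only.

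Most clusters were small. Of the 655, 365 had 5 peaks, 135 had 6 and 68 had 7, while the largest had 37. Their spans ran from 9.61 to 190 kb with a median of 31.9 kb, and together they covered 22.97 Mb, of which 13.8% lay in peaks. The gap between neighbouring peaks of a cluster had a median of 5.59 kb. Just outside the rule were 776 groups of 4 peaks with a median span of 21.2 kb, against 27.5 kb for the clusters of 5. A T3 6 h peak lay in 33.2% of the clusters of 5 and in 29.8% of the groups of 4, and a vehicle peak in 14.2% and 12.6%. Sizes and spans follow from the rule and are given as a description.

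**Figure D1:**
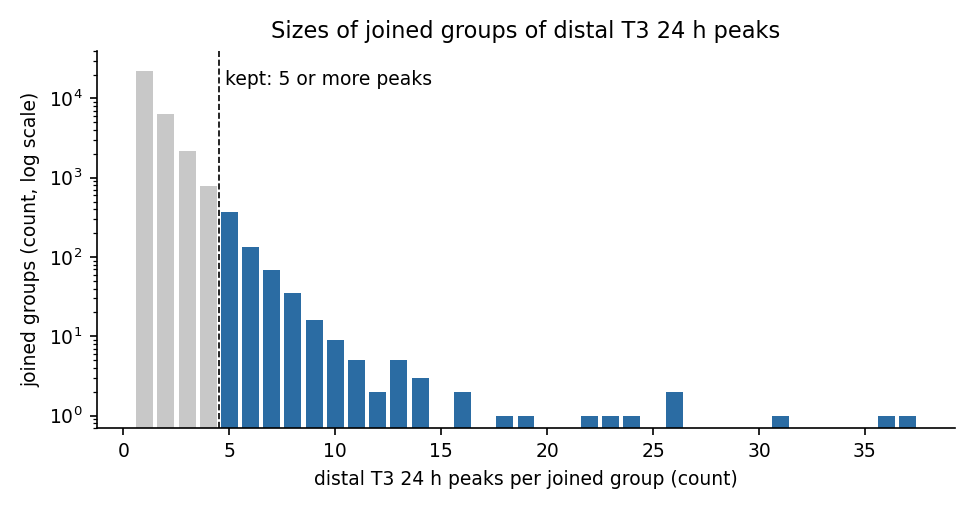
Number of joined groups of distal T3 24 h peaks (y axis, count on a log scale) by the number of peaks in the group (x axis, count); blue bars are the groups of 5 or more kept as clusters and grey bars the groups left out. The bars fall from 22461 lone peaks through 776 groups of 4 and 365 of 5 to 1 group of 37.

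Cluster peaks were of ordinary strength. The deposited signal, whose normalisation is not stated and which is used only within a list, had a median of 11.8 in clusters and of 11.8 at the 44655 other distal peaks. It was 17.1 at the 11539 peaks within 1 kb of a gene boundary. The replicate columns had medians of 5.87 and 6.02 in clusters, 5.66 and 6.14 at other distal peaks and 7.93 and 9.14 at gene boundaries. A cluster thus held many peaks rather than strong ones, with a median signal percentile of 44.8 in the T3 24 h list for cluster peaks and 44.9 for other distal peaks.

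The T3 6 h and vehicle lists had peaks in some clusters. A T3 6 h peak lay in 272 of 655 clusters (41.5%, 37.7 to 45.4) and a vehicle peak in 138 (21.1%, 18.0 to 24.4), where "in" refers to the summit. Among all 9900 joined groups of 2 or more distal peaks, clusters included, the shares were 18.3% and 7.37%, and larger groups have more room to hold a peak. Counted by peaks, 18.6% (17.5 to 19.9) of the cluster peaks were shared with the T3 6 h list and 15.4% (14.4 to 16.6) with the vehicle list. Over all distal T3 24 h peaks these shares were 8.84% and 4.30%. There was 1 list per group, so no test was made, and the intervals, exact Clopper-Pearson ones, cover counting error only.

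These averages joined clusters at different distances from genes, and the shares differed with that distance. Of the clusters, 549 with 3213 peaks overlapped or lay within 100 kb of the body of a protein-coding gene, 60 with 365 peaks lay 100 kb to 1 Mb away, and 46 with 527 peaks lay over 1 Mb away. Within 100 kb, 8.25% (7.32 to 9.25) of the peaks were shared with T3 6 h and 3.52% (2.91 to 4.21) with vehicle. These shares lie near the 7.94% (7.69 to 8.19) and 3.28% (3.12 to 3.45) of the distal peaks outside clusters. From 100 kb to 1 Mb the shares lay between, at 26.8% (22.4 to 31.7) for T3 6 h and 22.2% (18.0 to 26.8) for vehicle. Over 1 Mb from a gene, 76.3% (72.4 to 79.9) of the peaks were shared with T3 6 h and 83.5% (80.0 to 86.6) with vehicle. All 46 of these clusters held peaks of both lists, 454 T3 6 h peaks and 523 vehicle peaks beside 527 T3 24 h peaks. The limits of 100 kb and 1 Mb were set after the data had been seen.

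**Figure D2:**
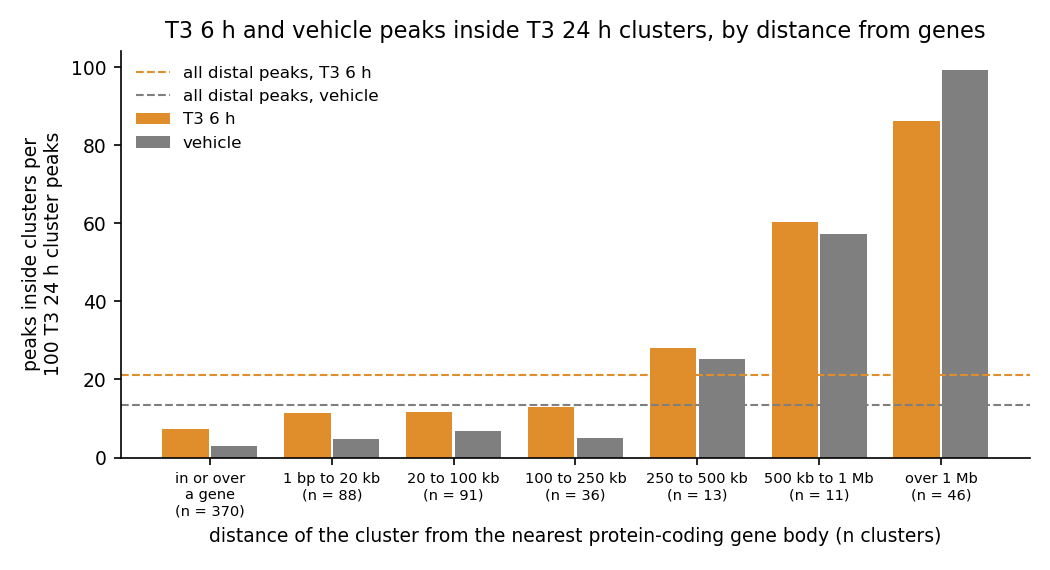
T3 6 h (orange, left) and vehicle (grey, right) peaks inside T3 24 h clusters per 100 T3 24 h cluster peaks (y axis), for clusters grouped by distance from the nearest protein-coding gene body (x axis, with the number of clusters); dashed lines give the ratio of the whole lists of distal peaks, 21.1 for T3 6 h and 13.5 for vehicle. The bars stand at 7.37 and 2.87 in or over genes and at 86.1 and 99.2 over 1 Mb from a gene. Clusters were chosen for many T3 24 h peaks, so bars below the lines can follow from the rule.

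The 46 remote clusters lay in 4 blocks without protein-coding genes. On chromosome 1, 23 clusters lay in chr1:122503472-125183231 (hg38), within the 22.4 Mb between LINC02798, which the table lists as protein-coding, and the histone gene H3-7. That block held 353 vehicle, 311 T3 6 h and 341 T3 24 h peaks in its clusters. On chromosome 13, 17 clusters in chr13:16321090-18004513 held 124 vehicle, 111 T3 6 h and 138 T3 24 h peaks. The 4 clusters in chr20:27477553-28563656 held 33, 23 and 38, and the 2 in chr10:39619936-40327122 held 13, 9 and 10, in the same order of lists. Inside these T3 24 h clusters the peak numbers of the 3 lists were of like size, although the T3 24 h list as a whole was far longer. Vehicle and T3 6 h peaks outside these clusters were not counted. By the same rule the vehicle list itself gave 69 clusters over 1 Mb from a gene and the T3 6 h list 47.

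The 3 largest clusters of all lay in the block on chromosome 1. The largest, chr1:124393430-124583663, held 38 vehicle, 36 T3 6 h and 37 T3 24 h peaks, and chr1:122798110-122970563 held 38, 36 and 36. The next, chr1:124648379-124785052, held 30, 27 and 31. Within their own lists the vehicle peaks inside remote clusters stood at a median signal percentile of 76.2 and the T3 6 h peaks at 82.6, whereas the T3 24 h peaks stood at 36.7. The replicate summits of the vehicle peaks there were separated by a median of 25 bp, against 180 bp for all distal vehicle peaks, and those of the T3 6 h peaks 53.5 bp, against 225 bp. None of the 46 overlapped a lncRNA gene of the table, and how reads mapped in these blocks, for instance in repeats, was not examined.

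Sharing within 100 kb of genes was most frequent among strong peaks, as it was for distal peaks outside clusters. In 10 equal classes of distal peaks by T3 24 h signal, the share of peaks in clusters within 100 kb that were also in the T3 6 h list was 5.26% for the weakest class, 12.6% for the ninth and 20.9% (16.1 to 26.5) for the strongest. The distal peaks outside clusters had 4.11%, 10.3% and 20.5% (19.3 to 21.7). The cluster share was the higher of the pair in 7 classes and the lower in 3. In remote clusters the weakest class had 36.7% and the strongest 100%, and the share was higher than outside clusters in 10 of 10 classes for both lists.

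**Figure D3:**
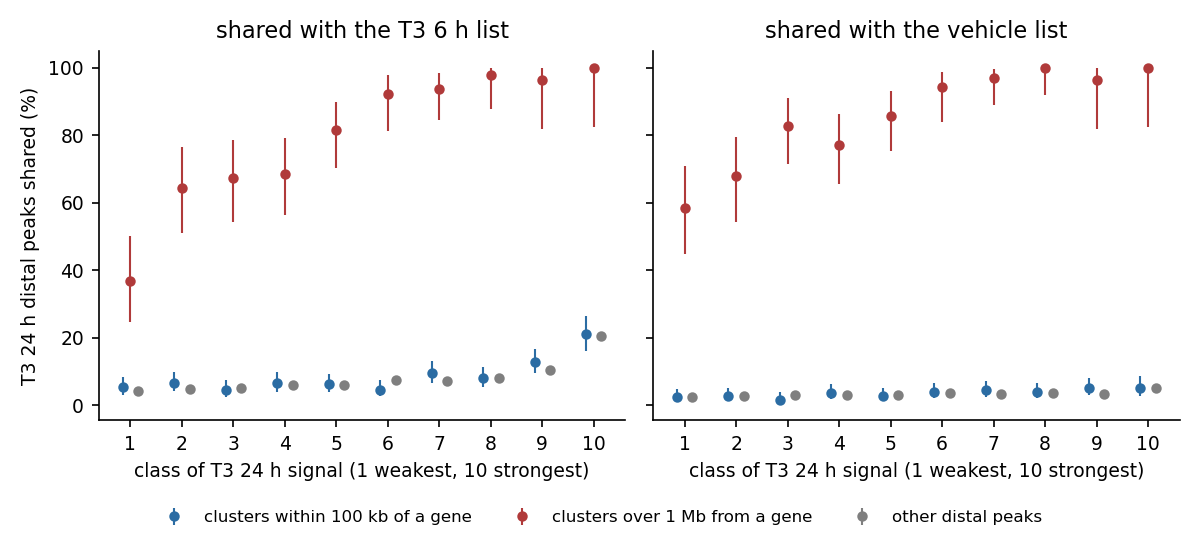
Share of distal T3 24 h peaks also present in the T3 6 h list (left) and the vehicle list (right), in percent (y axis), by class of T3 24 h signal from weakest to strongest (x axis); points are clusters within 100 kb of a gene (blue), clusters over 1 Mb from a gene (red) and distal peaks outside clusters (grey), with 95% Clopper-Pearson intervals. Blue and grey points lie close together in each class, at 20.9% and 20.5% for T3 6 h in the strongest, and red points lie above both.

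Of the 549 clusters within 100 kb of a gene, 369 had 0 peaks shared with T3 6 h, 127 had 1 and 53 had 2 or more. Where exactly 1 was shared, it was the strongest peak of its cluster in 56 of 127 (44.1%, 35.3 to 53.2), where 17.5% would follow if each peak of a cluster were equally likely. A shared peak was held by 54.5% (40.6 to 68.0) of the 55 with 8 or more peaks and by 27.4% (22.6 to 32.7) of the 317 with 5. Per peak the shares were 12.8% (10.02 to 16.02) and 6.94% (5.74 to 8.30). Of the 55, 4 clusters with 3 or more peaks shared with vehicle, a limit chosen after seeing the data, carried 26 of the 65 peaks shared with T3 6 h. Without them 50.98% (36.6 to 65.2) of the clusters held a shared peak, and 8.39% (6.03 to 11.3) of peaks were shared. For 369 of all 549 clusters, though not for most of those with 8 or more peaks, the T3 6 h list held no shared peak. Since a peak missing from a list has no value, this does not show that the DNA was closed.

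The largest cluster within 100 kb of a gene lay beside MYC, the transcription factor gene of cell growth. It held 19 T3 24 h peaks over 133 kb at chr8:127793756-127926714, beginning 50.8 kb from the MYC body, and overlapped PVT1, a lncRNA gene that neighbours MYC. Peak signals ran from 8.33 to 24.99 with a median of 14.2, and the medians of the replicate columns were 7.43 and 7.21. Of the 19 peaks, 3 were shared with T3 6 h and 0 with vehicle. The 3 shared peaks had T3 24 h signals of 18.3 (7.90 and 10.4), 23.4 (9.99 and 13.4) and 24.99 (10.9 and 14.1), the last being the strongest of the cluster. A peak of 22.6 (7.56 and 15.01) and one of 22.1 (12.3 and 9.82) had no T3 6 h counterpart.

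DUSP1, a phosphatase that switches off MAP kinases and is induced by growth factors, lay inside a cluster of 11 peaks at chr5:172733215-172807536. Its signals had a median of 18.3, with replicate medians of 8.33 and 8.92, and 0 T3 6 h and 0 vehicle peaks lay in it. The weakest of the 11 had 7.80 (4.15 and 3.65) and the strongest 21.7 (11.7 and 9.94), and the other 9 lay between 10.3 and 21.4. WWC1, which encodes the Hippo pathway protein KIBRA, also had a cluster of 11 peaks, at chr5:168262122-168342930, with a median signal of 15.8 and none of the other lists' peaks. A T3 6 h peak lay in 35.9% of all clusters within 100 kb of a gene and a vehicle peak in 13.8%. Of those with 8 or more peaks, 54.5% had a peak shared with T3 6 h.

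The clusters beside CWH43 and TTC34 differed from these. CWH43, whose product remodels lipids of membrane anchors, lay 29.2 kb from a cluster of 14 T3 24 h peaks at chr4:49091301-49155541 that also held 14 T3 6 h and 14 vehicle peaks. TTC34 overlapped a cluster at chr1:2623605-2699607 with 10 T3 24 h, 6 T3 6 h and 7 vehicle peaks. The median peak width was 2452 bp in the CWH43 cluster and 3486 bp in the TTC34 cluster, against 630 bp over the peaks of clusters within 100 kb of a gene. The same rule also gave, in both other lists, a cluster at each of these genes. H3-7 was the nearest gene of 22 T3 24 h peaks at chr1:143184623-143275964, 626 kb away, with 19 T3 6 h and 18 vehicle peaks. How reads mapped in these clusters, for instance in repeats, was not examined, and the genes are named for nearness only.

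**Figure D4:**
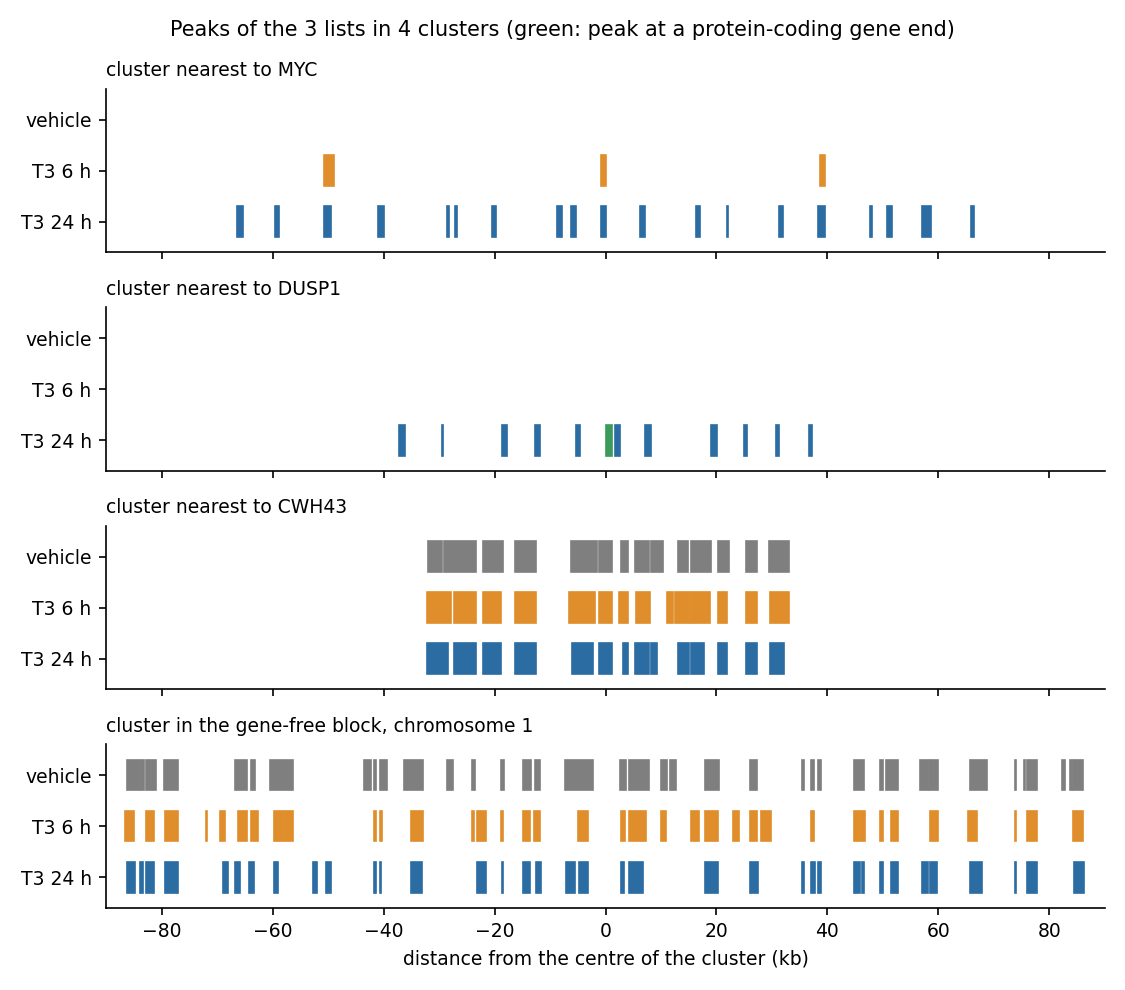
Peaks of the vehicle, T3 6 h and T3 24 h lists (rows) in 4 clusters, drawn by distance from the centre of the cluster in kb (x axis); boxes span the deposited peak limits and green marks a peak at a protein-coding gene boundary. The cluster nearest to MYC holds 3 T3 6 h peaks and 0 vehicle peaks and that of DUSP1 none of either, whereas that of CWH43 holds 14 peaks of each list and the cluster in the gene-free block holds 38 vehicle, 36 T3 6 h and 36 T3 24 h peaks.

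The 655 clusters had 563 nearest protein-coding genes, 2.82% of the 19974 in the table, where the nearest gene is the one with a boundary closest to the middle of the cluster. Gene positions were used as listed, with no check for genes placed on sequences outside the main chromosomes, so some nearest genes and distances may be wrong. Of the 308 genes in 16 lists of pathways and cell types, 40 were among the 563 nearest genes. Both the lists and the clusters were chosen with results of these data known, so the counts are descriptive. The nearest genes were long, with a median length of 69.0 kb against 24.2 kb for all protein-coding genes. In the longest of 5 length classes 6.06% of genes were nearest to a cluster, and in the shortest 1.68%. The median length of its genes is given beside several of the lists.

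**Figure D5:**
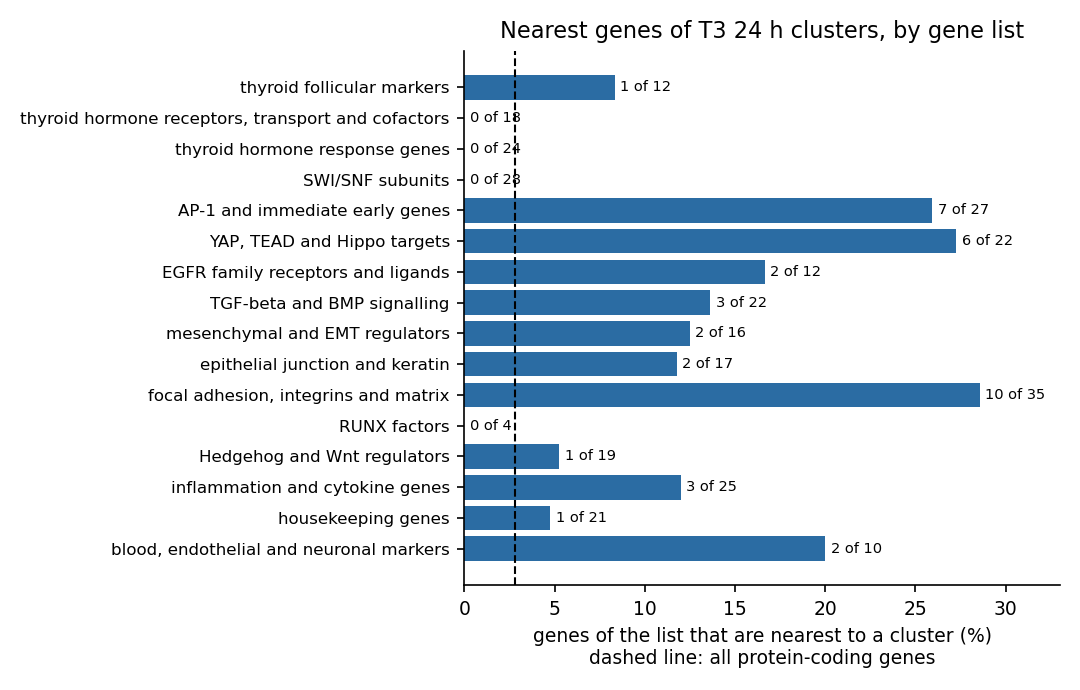
Share of the genes of each list that were nearest to a T3 24 h cluster, in percent (x axis), by list (y axis), with the number of genes beside each bar; the dashed line is the 2.82% of all protein-coding genes. The bars of focal adhesion and matrix genes, YAP and TEAD targets and immediate early genes stand at 10 of 35, 6 of 22 and 7 of 27, and those of hormone receptors, hormone response genes and SWI/SNF subunits at 0.

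Of 27 AP-1 and immediate early genes, with a median length of 7.18 kb, 7 were nearest to a cluster. Beside MYC and DUSP1 these were SPRY2, SPRY4 and SPRED2, feedback inhibitors of receptor tyrosine kinase signalling, DUSP5, a nuclear phosphatase of ERK, and IER2. The SPRED2 cluster, inside the gene at chr2:65359436-65383544, had 5 peaks with signals between 15.9 and 25.5 and a median percentile of 84.4. That of DUSP5 had 6 peaks with a median signal of 15.3 and lay 71.3 kb from the gene, and that of IER2 had 6 with a median of 9.65. The SPRY2 cluster held 6 peaks with a median of 15.2 and lay 287 kb from the gene. None of the FOS and JUN family genes of the list was among the 7.

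Of 22 YAP, TEAD and Hippo target genes (median length 51.2 kb), 6 were nearest to a cluster. CCN1, a matricellular protein and textbook YAP target, lay 15.1 kb from 6 peaks at chr1:85599053-85629666 with a median signal of 16.2. YAP1 itself overlapped 6 peaks with a median of 12.96, AMOTL2, which binds and restrains YAP, lay 17.9 kb from 6 with a median of 12.2, and WWTR1, encoding the YAP relative TAZ, overlapped 5 with a median of 14.9. CRIM1, a membrane protein that binds BMPs, held a pair of clusters of 7 and 5 peaks, and PTPN14, a phosphatase that restrains YAP, held 1 of 5. Of these 7 clusters, 3 held 1 T3 6 h peak each and 0 held a vehicle peak. Over all 549 clusters within 100 kb of a gene, 35.9% held a T3 6 h peak and 13.8% a vehicle peak.

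Of 35 focal adhesion, integrin and matrix genes, 10 were nearest to a cluster, and these genes were long, with a median of 90.8 kb. COL5A1, a chain of fibrillar collagen V, had clusters of 9 and 5 peaks with medians of 11.5 and 12.8. COL4A1, a chain of basement membrane collagen, lay 130 kb from 5 peaks with a median signal of 24.1, a median percentile of 89.1 and 2 T3 6 h peaks. ITGA3, the laminin-binding integrin subunit, overlapped 6 peaks with a median of 17.3, and PXN, the adhesion scaffold paxillin, 7 with signals of 8.50 to 13.1. PTK2, the focal adhesion kinase, lay 12.3 kb from 6 peaks with a median of 13.7 and 2 T3 6 h peaks. TNC, LPP and CAV1 were also among the 10, with clusters of 5 peaks each.

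Receptor and ligand genes of growth factor signalling were also among the nearest genes. EGFR, the epidermal growth factor receptor, contained clusters of 7 and 5 peaks at chr7:55052133-55087191 and chr7:55130749-55147411, with median signals of 14.7 and 9.48 and 0 peaks of the other lists. Only 35.9% of all clusters within 100 kb of a gene held a T3 6 h peak and 13.8% a vehicle peak. ERRFI1, an inhibitor of that receptor, lay 50.9 kb from 8 peaks with a median of 10.6. These were 2 of the 12 EGFR family genes, and the other 10 were not nearest to a cluster. Of 22 TGF-beta and BMP genes 3 were nearest to one, the ligand gene TGFB2 and the signal transducers SMAD3 and SMAD6. The TGFB2 cluster held 7 peaks at chr1:218459886-218496955, and its strongest had 40.0 (18.3 and 21.7), at percentile 99.7 of the T3 24 h list.

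The genes listed for the hormone were absent from the nearest genes, and genes outside these lists were not counted. Of 18 genes of thyroid hormone receptors, transport and cofactors 0 were nearest to a cluster, and likewise 0 of 24 hormone response genes and 0 of 28 SWI/SNF subunit genes, with median lengths of 85.2, 23.7 and 45.6 kb. At the 2.82% of all genes such lists would hold few or none, so these zeros do not set them apart. Of 12 thyroid follicular markers 1 was among them, FOXE1, a forkhead factor of thyroid development. Its 6 peaks at chr9:97786436-97812089 lay inside the lncRNA gene PTCSC2, had signals of 8.66 to 19.8 and were in the T3 24 h list alone. This was common, since 35.9% of clusters within 100 kb of a gene held a T3 6 h peak and 13.8% a vehicle peak.

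The remaining lists had from 0 to 3 members. Inflammation genes had 3 of 25, the NF-kappaB inhibitor NFKBIA, the TNF receptor TNFRSF1A and SOCS3, an inhibitor of cytokine signalling. By the strongest summit only 1 of the 25 remained. The strongest peak of the NFKBIA cluster lay nearest to PSMA6 and that of the TNFRSF1A cluster to PLEKHG6. Epithelial junction and keratin genes had 2 of 17, KRT7 and TJP1, and mesenchymal regulators 2 of 16, LOXL2 and HMGA2. Hedgehog and Wnt regulators had 1 of 19, TCF7L2, housekeeping genes 1 of 21 and RUNX factors 0 of 4. Of 10 markers of blood, endothelial and neuronal cells, which this line should lack, 2 were nearest to a cluster, VWF with 9 peaks and RBFOX3 with 5. Nearness therefore also picked genes of other cell types, and expression was not measured.

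The strongest clusters by median peak percentile were small. A cluster of 5 peaks with FYTTD1 as its nearest gene, which lay inside the body of RUBCN, stood at 93.1. Clusters inside NRP1 and MACF1 stood at 91.1 and 89.7. Those nearest to CHD2 and COL4A1, 68.2 and 130 kb from the gene bodies, stood at 89.7 and 89.1. In the NRP1 cluster, whose gene encodes the VEGF and semaphorin coreceptor neuropilin, the 5 peaks at chr10:33237803-33273841 had signals of 30.0, 13.2, 12.4, 25.5 and 27.0. The strongest and the next strongest of them were shared with T3 6 h and none with vehicle. In all, 34 genes were nearest to 2 clusters within 100 kb, among them EGFR, CRIM1, COL5A1 and NRP1.

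The share of nearest genes with a T3 24 h peak over a start lay near that of all genes. Of 401 nearest genes of clusters within 100 kb that had a start in the table, 256 (63.8%, 58.9 to 68.6) had a T3 24 h peak over a start, against 61.1% of all 15812 protein-coding genes. For T3 6 h the share was lower, 25 of 401 (6.23%, 4.07 to 9.07) against 10.9% (10.4 to 11.4). For vehicle it was 8 of 401 (1.995%, 0.865 to 3.89) against 1.11% (0.9496 to 1.28). Within clusters, the 146 peaks over a start had a median signal of 14.1 and the other 3067 peaks 11.8, for clusters within 100 kb of a gene.

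Clusters also held microRNA genes. Of 1558 hairpins listed by RefSeq, 39 (2.503%) lay in 23 clusters, 6 of them under a peak, and none of the peaks nearest to a hairpin was shared with T3 6 h or vehicle. Of all cluster peaks within 100 kb of a gene, 8.25% were shared with T3 6 h and 3.52% with vehicle. Both copies of the miR-23, miR-27 and miR-24 group were among them. The mature sequences are printed because the copies on chromosomes 19 and 9 share their seeds, and miR-143 and miR-145 because they form a second group within a cluster. Capitals mark bases 2 to 8, the seed, and coordinates are those of the mature RNA in GRCh38.p14.
hsa-miR-23a-3p (chr19:13836595-13836615, minus strand): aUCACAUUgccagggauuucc
hsa-miR-23b-3p (chr9:95085265-95085287, plus strand): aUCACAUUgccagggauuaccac
hsa-miR-27a-3p (chr19:13836447-13836467, minus strand): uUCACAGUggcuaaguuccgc
hsa-miR-27b-3p (chr9:95085505-95085525, plus strand): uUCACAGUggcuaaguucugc
hsa-miR-24-3p (chr19:13836289-13836310, minus strand): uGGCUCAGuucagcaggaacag
hsa-miR-143-3p (chr5:149428978-149428998, plus strand): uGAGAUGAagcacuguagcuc
hsa-miR-145-5p (chr5:149430661-149430683, plus strand): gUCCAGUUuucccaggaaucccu

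The seed UCACAUU was shared by miR-23a-3p and miR-23b-3p and the seed UCACAGU by miR-27a-3p and miR-27b-3p, while miR-24-3p is made from both loci with 1 sequence. The copy on chromosome 19 lay in a cluster of 5 peaks nearest to ZSWIM4, 2.05 to 2.35 kb from a peak of 11.9 (7.05 and 4.87). The copy on chromosome 9 lay in a cluster of 5 peaks nearest to FANCC, 1.48 to 2.30 kb from a peak of 9.70 (3.86 and 5.84). MIR143 and MIR145, known for their part in smooth muscle, lay in a cluster of 7 peaks nearest to IL17B, 1.28 and 3.01 kb from a peak of 12.48 (6.67 and 5.81). MIR152, which lies in the gene COPZ2, was itself under a peak of 12.4 (6.40 and 5.96). None of these 4 clusters held a T3 6 h or vehicle peak, which 35.9% (T3 6 h) and 13.8% (vehicle) of all clusters within 100 kb of a gene did.

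Near-gene clusters were found mostly in the T3 24 h list. By the same rule vehicle gave 96 clusters, 69 of them over 1 Mb from a gene and 3 within 100 kb. T3 6 h gave 64, with 47 over 1 Mb and 4 within 100 kb, and T3 24 h gave 655, with 46 and 549. Of the vehicle clusters 36.5% overlapped a T3 24 h cluster, as did 67.2% of the T3 6 h clusters, and 8.09% and 7.94% of the T3 24 h clusters were overlapped in return. When each list was limited to its 7103 strongest peaks, 96 clusters were left for vehicle, 52 for T3 6 h and 0 for T3 24 h, whose largest group had 4 peaks. The clusters within 100 kb of genes thus consist mostly of peaks below the signal of 23.7 at which that limit falls. The limit kept the whole vehicle list but only the strongest T3 24 h peaks, 4287 of them distal, against 6569 for vehicle and 5866 for T3 6 h. Loss of clusters made of weaker peaks follows from such a cut, and the part of list length was not tested.

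Clusters within 100 kb of a gene lay on all 23 chromosomes examined, at 11.3 per 1000 distal T3 24 h peaks. Chromosome 10 had 16.5, chromosome 15 had 15.8 and chromosome 5 had 15.2, while chromosome X had 1.94, chromosome 4 had 4.91 and chromosome 13 had 4.98. Chromosomes 5, 7, 10 and 20 together held 166 of the 549 (30.2%), against 23.9% of the distal T3 24 h peaks. The share of their peaks also in the T3 6 h list was lower than at other distal peaks on 13 chromosomes and higher on 10. The lists give no read counts, so sequencing depth is unknown and was not weighed against the lengths of the lists, 7103 peaks for vehicle, 12385 for T3 6 h and 60661 for T3 24 h.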

How the data were processed

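ATAC-seq was done in 6 samples, 2 per group, with nuclei of 50000 cells each, per the labels' protocols. Tools listed in the submitters' processing notes are Trim Galore, CASAVA 1.7, DiffBind, Bowtie2 and MACS2, with no roles or settings, and the build is hg38. How Tn5 offsets, duplicates, mitochondrial reads and blacklisted regions were treated is likewise not given in the sources used here. For each group the authors deposited 1 list of peaks, joining both replicates. Per the file layout, which is that of the IDR method for 2 replicates, the signal column deposited by the authors adds up the signals of both replicates, the deposited score is a scaled irreproducible discovery rate (IDR) of at most 1000, and another column deposited by the authors holds the −log10 of the IDR, which was at most 0.05 for every peak. The replicate columns carry no sample name.

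Analysis used scipy 1.17.1, pandas 2.3.3 and numpy 2.4.6 under Python 3.11.15. Overlaps were checked against bedtools 2.31.1, and the joining step was tested on simulated data. Genes, starts and miRNAs came from RefSeq tables of GRCh38.p14, the assembly of hg38. No genome sequence was used. Clusters were named by the nearest of 19974 protein-coding genes. The rule for naming took the largest, widest and strongest clusters (the largest within 100 kb of a gene were added after seeing the data), those with most peaks of the other lists and up to 4 per gene list. IER2, SPRED2, SPRY4, WWTR1, PTPN14, TNC, LPP, CAV1 and the miRNA clusters were named in addition. Some items that the rule selects are not reported here. Members and gene lists were chosen with earlier results of these data known. No test between groups was made: each group has 1 list, a missing peak has no value, and how the signal was normalised is not given in the sources used here. Alternatives changed the IDR limit, list length, summit agreement, gap, gene distance, minimum number of peaks and overlap.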

Additional observations from a re-analysis of the deposited data

How the results depend on the processing

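The median signal percentile of cluster peaks, 44.8, stayed between 43.1 and 47.6 under all 14 alternatives tried for it. The number of clusters, 655, and the shares of peaks and clusters with T3 6 h or vehicle counterparts moved with the rule. With an IDR of at most 0.01 there were 209 clusters, 29.7% of them held a T3 6 h peak and 18.0% of their peaks were shared with vehicle. With replicate summits within 100 bp there were 273, with shared peaks of 12.6% (T3 6 h) and 13.01% (vehicle), and 25.6% and 17.2% of clusters held such a peak. A gap of 5 kb gave 44 clusters with peak shares of 59.6% and 60% and cluster shares of 75% and 68.2%. A gap of 20 kb gave 1543 clusters with peak shares of 12.8% and 8.69%. With a minimum of 4 peaks there were 1431 clusters with peak shares of 14.5% and 10.8% and cluster shares of 35.2% and 16.5%. With a minimum of 8 there were 87, with 43.3% for both peak shares and cluster shares of 70.1% and 44.8%. A distance over 2.5 kb from gene boundaries gave peak shares of 20.5% and 17.4%, the boundaries of all RefSeq genes 21.8% and 19.4%, and an overlap of 90% gave 16.3% and 14.1%. Lists of equal length gave 0 clusters, and so no shares.

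Alternatives added after seeing the data left out clusters far from genes. Clusters within 100 kb alone gave peak shares of 8.25% and 3.52% and cluster shares of 35.9% and 13.8%. Without those over 1 Mb the values were 10.1%, 5.42%, 37.1% and 15.1%. The contrast by distance stayed with an IDR of at most 0.01, where 4.45% (T3 6 h) and 2.06% (vehicle) of peaks were shared within 100 kb and 76.7% and 79.9% over 1 Mb. With summits within 100 bp these shares were 2.21% and 0.74%, against 55.4% and 64.9%. Of the 308 listed genes 24 were hit when gene bodies had to overlap a cluster, in place of 40, and 37 by the strongest summit.

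No paired analysis was possible because each list joins both replicates and gives no value per sample for a missing peak. With the signal of only 1 replicate column the median percentile was 43.4 to 47.6, and with the summit of only 1 column there were 656 or 657 clusters. Why the counts moved was not tested beyond what each rule does by construction. Depth is unknown, and a peak missing from a shorter list is not shown to be closed DNA. The comparison of starts under other distal peaks and the choice of printed sequences were also made after seeing the data.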
